A study of Homo sapiens with 12 samples.

Results

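Neuroendocrine lineage markers are genes used to recognise prostate cancer that has taken on a neuroendocrine state. Here 9 genes listed under that name were followed in castration-resistant prostate cancer cells: SYP, CHGA, CHGB, NCAM1, INSM1, SCG2, DLL3, REST and NTS. REST is in the set as a repressor of neuronal genes, so a rise of REST is not a rise of a neuroendocrine gene. The genes were chosen with earlier results of these data known, so they are not a set picked independently of the data. They were matched by symbol, and all 9 were found among the 23228 genes of the count files. RNA-seq was performed on 12 libraries of C4.2B, a human castration-resistant prostate cancer line, in 4 arms with plates A, B and C in each. Cells of the 4 arms received vehicle (DMSO), 0.5 µM of the pan-PI3K inhibitor GDC-0941 (GDC), 5 µM of the EZH2 inhibitor GSK126 (GSK), and both agents together (COMBO). All arms were treated for 24 hours in medium with 10% charcoal-stripped FBS, which is low in androgens, and the GSK and COMBO arms had already received GSK126 for 6 days, whereas the other arms had received vehicle. The 2 agents were thus given for different times, all libraries come from 1 cell line, and the plates were seeded from pretreated cultures, so that p-values measure the spread between plates.

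Neuroendocrine cells store peptides in dense core granules built from granins, and release them through the same vesicle machinery that neurons use at synapses. REST, a zinc finger repressor, keeps such neuronal genes silent in other cells, and transcription factors such as INSM1 and NEUROD1 drive the neuroendocrine programme. In the prostate this state is known mainly from advanced tumors that have lost luminal features. EZH2 is the enzyme that places the repressive mark H3K27me3, and it is the target of GSK126.

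Levels are given as CPM, the reads counted on a gene per 1000000 reads on genes, after TMM scaling of the library sizes. Each library held between 8785218 and 44437751 reads on genes. Before TMM scaling, 3 reads, taken here as the floor of detection, stood for 0.0675 to 0.341 CPM in a library. Floors over the 3 libraries of an arm together were taken after TMM scaling. There the same 3 reads stood for 0.0434 CPM in the DMSO arm, 0.0706 CPM for GDC, 0.0893 CPM for GSK and 0.0560 CPM for COMBO. Floors and count intervals cover counting error only. Some reads were matched to no counted feature, and whether they lay between genes or in introns is not known here. Such reads made up 13.7% to 14.6% of all reads under DMSO and 15.2% to 15.7% under GDC. They made up 18.5% to 18.9% under GSK and 21.0% to 23.0% under COMBO. This share moved with treatment, and its part in the results was not tested.

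In every arm luminal prostate genes were read at high levels, and INSM1 and NEUROD1 were at or under the floor. KLK3, which encodes the prostate-specific antigen PSA, was at 597 ± 50.8 CPM (SD, n = 3) in DMSO and 1843 ± 159 CPM in COMBO. The summed CPM of 12 luminal prostate genes was 4505 to 4671 in DMSO and 6398 to 6642 in GDC. It was 5489 to 5945 in GSK and 6983 to 7503 in COMBO. Of the 12, 9 rose and 1 fell in GDC, beside 20.0% of all genes tested called higher and 20.0% called lower. In GSK 7 rose and 3 fell, beside 40.0% and 35.7%, and in COMBO 9 rose and 1 fell, beside 43.3% and 39.2%. HOXB13 was at 484 CPM in DMSO and 304 CPM in COMBO. NEUROD1, a neuroendocrine transcription factor, had 0 reads in all 12 libraries, which allows up to 0.0434 CPM in DMSO. EZH2 mRNA fell in the GSK arm by 0.89 ± 0.06 on the log2 scale (estimate ± SE), and BMF, a proapoptotic gene named as a check of EZH2 inhibition, rose by 2.74 ± 0.06 (edgeR quasi-likelihood test, adjusted p = 2.44e-11 and 7.94e-18).

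RefSeq promoter windows (GRCh38.p14, 250 bases before to 50 bases after the transcript start) were matched for 4 of the 9 members: NTS, CHGA, SYP and REST. NTS, CHGA and SYP are shown because the first was read only in the arms with GSK126, the second stayed near the floor in every arm, and the third was read at a low level in every arm. The 250 bases before the start are printed 5' to 3' along the gene's strand, with capitals marking matches to the motif TGACNTCA, which holds the cAMP response element, on either strand.
NTS (chr12:85874045-85874294, plus strand): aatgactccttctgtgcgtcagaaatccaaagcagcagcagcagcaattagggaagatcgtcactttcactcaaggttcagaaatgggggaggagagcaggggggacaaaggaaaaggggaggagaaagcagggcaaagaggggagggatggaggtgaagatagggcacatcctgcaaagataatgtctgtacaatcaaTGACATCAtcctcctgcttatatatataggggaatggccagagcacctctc
CHGA (chr14:92922900-92923149, plus strand): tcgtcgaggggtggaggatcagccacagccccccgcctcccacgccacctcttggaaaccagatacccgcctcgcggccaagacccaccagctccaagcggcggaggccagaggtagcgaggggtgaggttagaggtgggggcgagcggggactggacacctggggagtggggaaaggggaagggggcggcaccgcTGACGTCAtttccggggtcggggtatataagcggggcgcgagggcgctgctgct
SYP (chrX:49200194-49200443, minus strand): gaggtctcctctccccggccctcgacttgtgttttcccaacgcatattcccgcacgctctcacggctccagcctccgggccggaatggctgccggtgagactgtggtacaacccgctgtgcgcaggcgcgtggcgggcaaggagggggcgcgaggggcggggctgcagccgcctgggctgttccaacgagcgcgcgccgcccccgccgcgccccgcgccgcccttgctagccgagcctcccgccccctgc

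The motif TGACNTCA was found once in the NTS window, beginning 51 bases before the start, and once in the CHGA window, beginning 54 bases before it. It was not among the letters of the SYP window or of either REST window. Of 35116 promoter windows of this length, 7.72% held the motif. The NTS window held 2 CG dinucleotides, fewer than most promoters, since 11% of windows held fewer than that and the median window held 14. CHGA held 24, SYP 35 and the REST windows 44 and 46, and 66.1%, 85.9%, 95.8% and 97.1% of windows held fewer than these. These matches describe the sequences and say nothing about binding.

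Levels per length separated the members by orders of magnitude. In CPM per kilobase of exon (RPKM), DMSO cells held REST at 13.0 ± 0.9999 and DLL3 at 3.89 ± 0.477 (SD, n = 3), while SYP was at 0.227 ± 0.0441. SCG2 at 0.0716 ± 0.0477, CHGA at 0.0487 ± 0.0182 and NCAM1 at 0.0351 ± 0.0272 RPKM came next and did not differ beyond their spread. INSM1 and CHGB were at 0.0123 ± 0.0214 and 0.00969 ± 0.0124 RPKM, and NTS had no reads. In COMBO the order changed in the middle, where NTS at 0.404 ± 0.207 RPKM stood beside SYP at 0.263 ± 0.0407, a pair that did not differ beyond its spread.

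**Figure D1:**
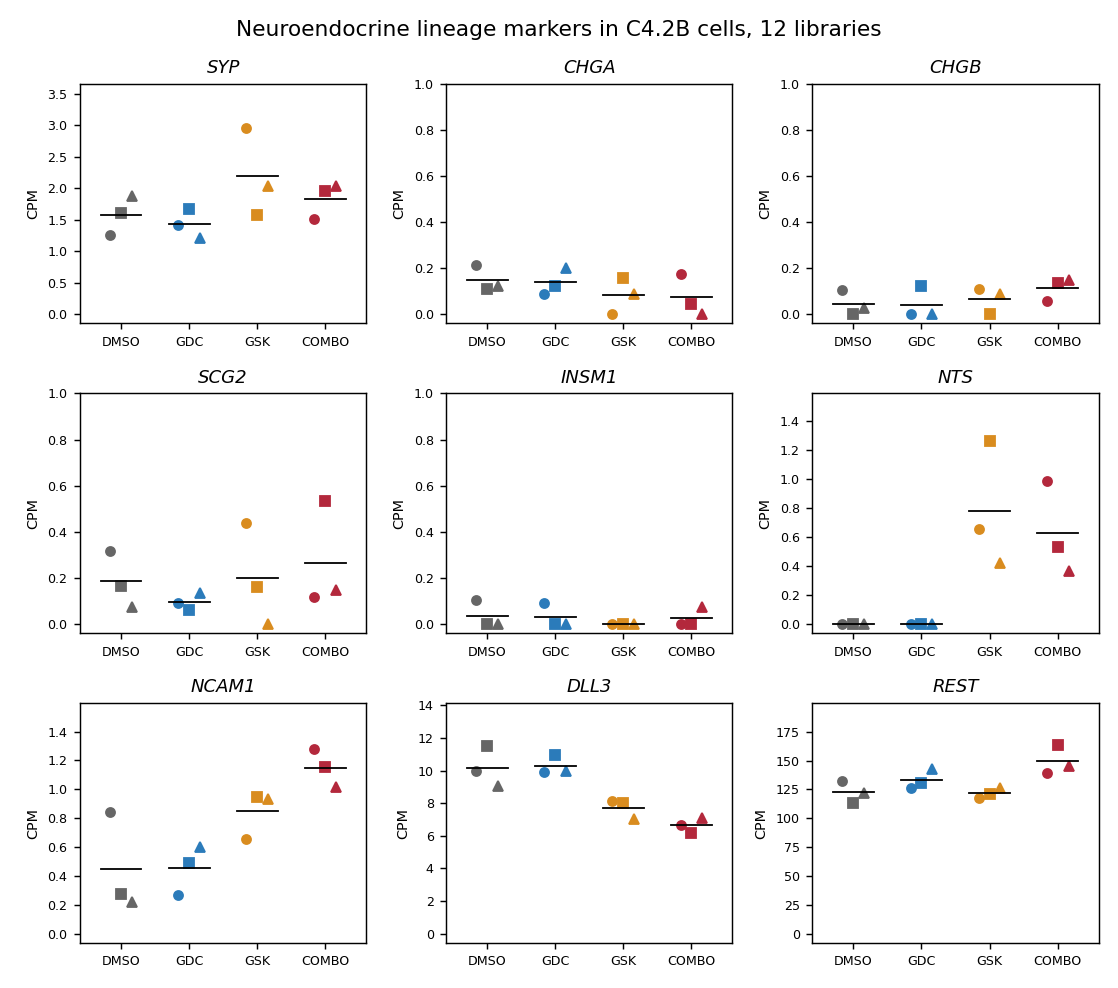
Level of each of the 9 markers in CPM (vertical axis, a scale of its own in each panel) in the 12 libraries, grouped by arm (horizontal axis). Circles, squares and triangles are plates A, B and C, and black lines are the mean of 3 plates. NTS sits at 0 in all DMSO and GDC libraries and between 0.364 and 1.26 CPM in the others, DLL3 is lower and NCAM1 higher in COMBO than in every DMSO library, and CHGA, CHGB and INSM1 lie near the floor throughout.

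Of the 9 markers, 4 had enough reads to enter the test across all genes (SYP, NCAM1, DLL3 and REST), and 5 did not (CHGA, CHGB, INSM1, SCG2 and NTS). A silent gene can pass this filter by rising in 1 arm, so counts over the tested genes of any list below describe those genes alone. For this reason, setting them beside the share of all genes cannot show that a list as a whole rose. NCAM1, NTSR1, ST8SIA4, SYT1, MAML2, DTX1, NOTCH4 and COL3A1, for example, averaged under 0.5 CPM in DMSO, and SCN2A averaged 0.569 CPM. Among the 4 markers tested, none was called with GDC, against 20.0% of all 14189 genes called higher and 20.0% called lower. With GSK, 1 was higher (NCAM1) and 1 lower (DLL3), beside 40.0% and 35.7% of all genes. With COMBO, 2 were higher (NCAM1 and REST) and 1 lower (DLL3), beside 43.3% and 39.2% of all genes. Against GDC, COMBO had NCAM1 and REST higher and DLL3 lower, beside 37.9% and 38.0%, and against GSK it had REST alone higher among the 4, beside 19.0% higher and 26.9% lower. The interaction, which asks whether COMBO differed from the sum of the 2 single agents on the log2 scale, was called for none of the 4, beside 4.86% of genes above and 16.5% below that sum. With so many genes called in each comparison, the number of markers called is no result about the markers as a set. The comparisons with DMSO share the same 3 control libraries.

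**Figure D2:**
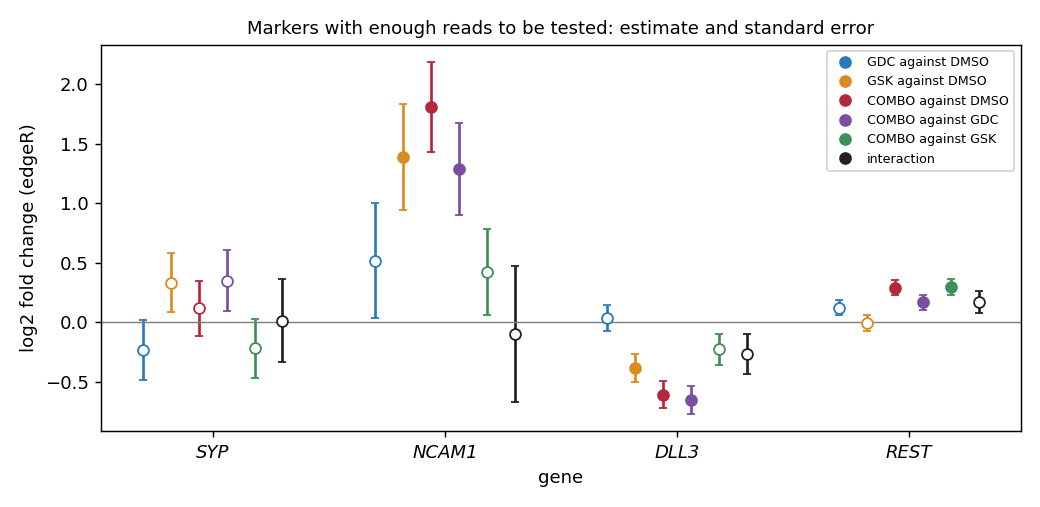
Log2 fold change from edgeR (vertical axis) of the 4 markers that were tested (horizontal axis) in 5 comparisons and the interaction, with standard errors as bars. Filled points have an adjusted p under 0.05. NCAM1 rose by 1.38 in GSK and 1.81 in COMBO, DLL3 fell in both, REST rose by 0.29 in COMBO, and no point of SYP is filled.

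SYP encodes synaptophysin, a membrane glycoprotein of synaptic and neuroendocrine vesicles, at chrX:49187815-49200218 on the minus strand (GENCODE 44 on hg38). It was counted 12, 29 and 78 times in DMSO A, B and C, which is 1.26, 1.60 and 1.88 CPM. The GDC libraries held 1.41, 1.66 and 1.21 CPM, the GSK libraries 2.97, 1.58 and 2.03 CPM, and the COMBO libraries 1.51, 1.95 and 2.04 CPM. The 4 arms overlapped, with GSK A the highest library of all. The log2 difference from DMSO was -0.23 for GDC (95% interval -0.73 to 0.26), 0.33 for GSK (-0.15 to 0.82) and 0.12 for COMBO (-0.33 to 0.56), with edgeR adjusted p of 0.493, 0.221 and 0.639. These intervals leave room for changes of over 1.5-fold in GSK. The annotation places the antisense gene SYP-AS1 over a SYP exon, and the strand setting of the counting is not given in the sources used here, so reads of the pair cannot be told apart.

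The granins, the acidic proteins that fill dense core granules, were close to the floor. CHGA, encoding chromogranin A (chr14:92923150-92935285), was counted 2, 2 and 5 times in DMSO plates and 1, 2 and 3 times in GDC plates. GSK plates gave 0, 2 and 1 reads and COMBO plates 3, 1 and 0. That is 22 reads in all, with the highest library, DMSO A, at 0.211 CPM. Pooled over the arm, the ratio of COMBO to DMSO was 0.574 with a 95% counting interval of 0.129 to 2.06, so a change of 2-fold either way was not detectable at this depth. CHGB, encoding chromogranin B (chr20:5911510-5925353), gave 12 reads over 8 libraries, at most 3 in any library, and 6 of them fell in COMBO.

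SCG2, which encodes secretogranin II, the precursor of the peptide secretoneurin (chr2:223596940-223602361, minus strand), was counted 35 times. The DMSO libraries held 3, 3 and 3 reads, the GDC libraries 1, 1 and 2, the GSK libraries 4, 2 and 0, and the COMBO libraries 2, 12 and 2. COMBO B alone held 12 of the 16 reads in its arm, and the other COMBO libraries lay within the range of DMSO. The pooled ratio of COMBO to DMSO was 2.30, with a counting interval of 0.956 to 5.90 that does not take the spread between plates into account. INSM1, a zinc finger transcription factor used as a nuclear marker of neuroendocrine tumors (chr20:20368104-20370949), had 3 reads in all, 1 each in DMSO A, GDC A and COMBO C. Its pooled level was under the floor in every arm.

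NTS was the member that went from no reads to clear detection. It encodes neurotensin, a peptide made by neurons and by enteroendocrine cells (chr12:85874295-85882992), and its promoter is the CG-poor sequence printed above. NTS had 0 reads in all 3 DMSO and all 3 GDC libraries, although DMSO C was the deepest library of the series. It was counted 6, 16 and 5 times in GSK A, B and C, which is 0.659, 1.26 and 0.424 CPM, and 17, 12 and 5 times in COMBO, which is 0.987, 0.533 and 0.364 CPM. Every library that received GSK126 thus lay above every library that did not. Against a floor of 3 reads over the arm, NTS was at least 18.5-fold higher in GSK than in DMSO, at least 14.6-fold higher in COMBO than in DMSO and at least 8.99-fold higher in COMBO than in GDC. Exact counting intervals of the same ratios had lower bounds of 14.1, 11.3 and 6.92. These limits follow the depth of the libraries at 0: without DMSO C they fell to 7.40-fold and 5.84-fold against DMSO, without GSK B to 12.1-fold, and without GDC B or GDC C to 5.55-fold and 5.83-fold against GDC.

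The level of NTS remained modest, and adding GDC-0941 made no detectable difference to it. COMBO held 34 reads and GSK 27, a pooled ratio of 0.790 with a counting interval of 0.463 to 1.36. NTS was left out of the main test by the filter on low counts. Without that filter, edgeR gave an adjusted p of 3.30e-10 for GSK and 1.11e-09 for COMBO against DMSO, and DESeq2 gave 8.87e-06 and 2.04e-05. In bulk RNA, a few cells with much NTS and many cells with little cannot be told apart, and the same holds for each marker here.

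NTSR1 and SORT1, which encode receptors of neurotensin, rose in the same arms, and NTSR2 did not pass the test. NTSR1, the high-affinity G protein-coupled receptor, was at 0.421, 0.221 and 0.529 CPM in DMSO plates and 0.619, 0.370 and 0.402 CPM in GDC plates. GSK plates held 1.87, 1.42 and 1.36 CPM, and COMBO plates 3.25, 1.86 and 2.26 CPM. It rose by 1.81 ± 0.36 on the log2 scale in GSK and 2.48 ± 0.30 in COMBO (edgeR adjusted p = 0.000150 and 2.40e-07), and the GSK and COMBO libraries did not overlap those of DMSO and GDC. SORT1, encoding sortilin, a sorting receptor that also binds neurotensin, rose by 1.07 ± 0.06 and 1.24 ± 0.06 from 43.2 CPM in DMSO (adjusted p = 2.41e-12 and 6.05e-14). For NTSR2 the log2 differences were -0.12 ± 0.36 and -0.23 ± 0.32 (adjusted p = 0.812 and 0.539).

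**Figure D3:**
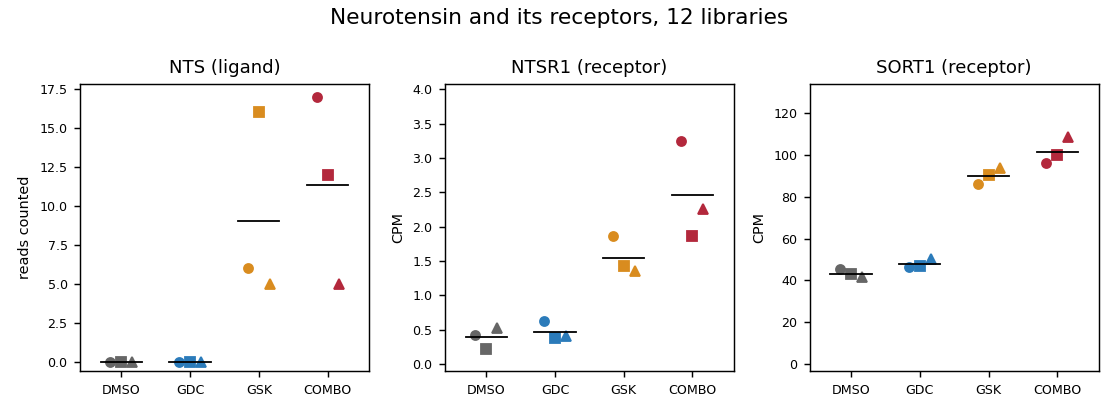
Reads counted on NTS, and levels of its receptors NTSR1 and SORT1 in CPM (vertical axes), in the 12 libraries by arm (horizontal axis). Circles, squares and triangles are plates A, B and C, and black lines are means of 3 plates. NTS has 0 reads in all 6 libraries without GSK126 and 5 to 17 reads in the 6 with it, and both receptors are higher in those 6.

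NCAM1, the neural cell adhesion molecule also known as CD56, rose with GSK126 from a very low base. The gene lies at chr11:112961275-113278436. DMSO libraries held 8, 5 and 9 reads, which is 0.842, 0.276 and 0.217 CPM, and GDC libraries 0.265, 0.493 and 0.604 CPM. GSK libraries held 0.659, 0.949 and 0.932 CPM, and COMBO libraries 1.28, 1.15 and 1.02 CPM. COMBO lay above every other library, whereas GSK A lay below DMSO A, so that GSK and DMSO overlapped. NCAM1 was 2.61-fold higher in GSK (log2 1.38 ± 0.44) and 3.50-fold higher in COMBO (1.81 ± 0.38) than in DMSO, with edgeR adjusted p of 0.00829 and 0.000186.

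The rise of NCAM1 in COMBO was called under all 12 alternative fits that gave it a value, the filter at a mean of 1 CPM leaving it out, with log2 values of 1.26 to 2.26, whereas that in GSK was lost with DESeq2 (1.18, adjusted p = 0.0640) and without DMSO C (0.84, adjusted p = 0.129). In the comparison of COMBO with GDC it was 2.44-fold higher (adjusted p = 0.00542), and the difference from GSK was 0.42 on the log2 scale (95% interval -0.28 to 1.13, adjusted p = 0.361). In the annotation 3 other genes, among them the antisense NCAM1-AS1, share exonic bases with NCAM1, and their reads cannot be told apart from its own without strand. Enzymes that add polysialic acid to NCAM rose as well. ST8SIA2 rose by 2.20 ± 0.20 in GSK and 1.92 ± 0.20 in COMBO on the log2 scale, and its COMBO value lay below the sum of the single agents (interaction -1.01 ± 0.29, adjusted p = 0.0180). Of the 5 partner genes listed for NTS and NCAM1, 4 rose in GSK and in COMBO, all but NTSR2, beside 40.0% and 43.3% of all genes, with median log2 changes of 1.19 and 1.24 beside 0.06 and 0.05 over all genes tested.

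DLL3 moved the other way. It encodes an atypical Notch ligand that dampens Notch signaling and is a surface target in neuroendocrine tumors (chr19:39498895-39508481). DMSO libraries held 10.00, 11.5 and 9.02 CPM and GDC libraries 9.90, 10.97 and 9.99 CPM. GSK libraries held 8.13, 7.98 and 7.03 CPM, and COMBO libraries 6.68, 6.17 and 7.06 CPM. All 6 libraries with GSK126 lay below all 6 without it. DLL3 fell by 0.38 ± 0.12 on the log2 scale in GSK and by 0.61 ± 0.11 in COMBO, which is 1.30-fold and 1.52-fold lower (edgeR adjusted p = 0.00739 and 5.93e-05). Against GDC it was 1.57-fold lower in COMBO (adjusted p = 5.48e-05), while the difference between COMBO and GSK was -0.22 (95% interval -0.48 to 0.03, adjusted p = 0.167). The decrease in COMBO was called in all 13 alternative fits, with values of -0.72 to -0.40, but is smaller than a log2 change of 1, and calls that also needed that size left it out. That in GSK was lost when libraries were scaled by their totals alone (-0.23, adjusted p = 0.0928).

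Other Notch genes were measured beside DLL3. DLL1, an activating ligand, rose by 1.75 ± 0.15 in GSK and 1.70 ± 0.14 in COMBO on the log2 scale, from 2.08 CPM in DMSO. NOTCH3 rose by 1.25 ± 0.06 and 1.51 ± 0.05, while NOTCH1 and NOTCH2 differed from DMSO by -0.03 ± 0.07 and 0.08 ± 0.10 in GSK and were not called there. In COMBO both were called, at 0.16 ± 0.07 and 0.33 ± 0.09. HES1, a repressor that Notch switches on, did not pass the test in GSK (0.10 ± 0.08, adjusted p = 0.256) and fell by 0.27 ± 0.08 in COMBO (adjusted p = 0.00342). NRARP, a Notch target that limits the pathway, fell by 1.49 ± 0.08 and 1.06 ± 0.07, and MAML2, a coactivator of Notch, rose by 3.36 ± 0.33 and 3.06 ± 0.32 from very low counts; these last 2 were chosen after their values were seen. Of 25 Notch pathway genes 20 were tested, of which 9 rose and 4 fell in GSK, beside 40.0% and 35.7% of all genes, and 12 rose and 4 fell in COMBO, beside 43.3% and 39.2%. Their median log2 changes were 0.13 and 0.25, and ligands and targets each included calls in both directions.

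REST was the most abundant member, and it was called higher in COMBO than in DMSO and in either single agent. It lies at chr4:56907876-56966808 and was counted 1257, 2053 and 5066 times in DMSO. That is 132, 114 and 122 CPM, beside 126, 131 and 142 CPM for GDC. GSK libraries held 117, 121 and 126 CPM, and COMBO libraries 139, 164 and 146 CPM. The COMBO libraries lay above all DMSO and GSK libraries, and COMBO A lay below GDC C. REST rose by 0.29 ± 0.06 on the log2 scale in COMBO against DMSO (1.23-fold, edgeR adjusted p = 0.000329), by 0.30 ± 0.07 against GSK (adjusted p = 0.000944) and by 0.17 ± 0.06 against GDC (adjusted p = 0.0247). The last call was lost without GDC A (0.13, adjusted p = 0.106) or without COMBO B (0.12, adjusted p = 0.0753).

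With GSK126 alone REST mRNA was at -0.01 ± 0.07 of DMSO on the log2 scale (95% interval -0.14 to 0.12, adjusted p = 0.931). When libraries were scaled by totals this became 0.15 (adjusted p = 0.0413). That scaling raised the median of all genes by 0.15 in GSK and by 0.21 in COMBO, so the value of REST moved by about as much as that of the median gene. The rise in COMBO against DMSO was called in all 13 alternative fits, at 0.21 to 0.50, and was likewise left out where calls needed a log2 change of 1. The interaction was 0.17 ± 0.09 (adjusted p = 0.197), and it passed without the filter on low counts (0.27, adjusted p = 0.0129) and without COMBO A (0.29, adjusted p = 0.0381). NOA1 and an unnamed noncoding gene overlap REST on the opposite strand, NOA1 within exons, and their share of its reads is unknown.

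Of 18 neuronal genes that REST is known to repress, 10 were tested, and all of these rose in GSK and in COMBO, with median log2 changes of 1.01 and 1.19. This compares with 40.0% and 43.3% of all genes called higher. The other 8 did not pass the filter on low counts. Among these, means lay in both directions: NEFH was at 0.348 CPM in DMSO and 0.0971 CPM in COMBO, and SCN3A at 0.210 and 0.759 CPM. L1CAM, a neural adhesion molecule, was at 0.842, 0.829 and 0.553 CPM in DMSO and 7.91, 6.40 and 8.39 CPM in GSK, a rise of 3.47 ± 0.21 on the log2 scale (edgeR adjusted p = 1.30e-11), and rose by 3.27 ± 0.21 in COMBO. RUNDC3A rose by 1.83 ± 0.24 and 1.97 ± 0.22.

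SCN2A, a neuronal sodium channel, rose by 2.82 ± 0.33 in GSK and 2.96 ± 0.30 in COMBO. TUBB3, the neuronal beta-tubulin, rose by 1.45 ± 0.07 and 0.92 ± 0.07, and its COMBO value lay below the sum of the single agents (interaction -0.49 ± 0.10, adjusted p = 0.00105). SCN2A and TUBB3 were chosen after their values were seen. With GDC alone 4 of the 10 rose and none fell, beside 20.0% of all genes called higher and 20.0% called lower. Their median was 0.34, beside 0.02 over all genes tested.

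All 22 corepressors and regulators of REST were tested. In GSK 6 rose and 11 fell, beside 40.0% and 35.7% of all genes, and in COMBO 8 rose and 13 fell, beside 43.3% and 39.2%, with medians of -0.15 and -0.23. Scaled by totals alone, 10 rather than 6 rose in GSK and 7 rather than 13 fell in COMBO. Under that scaling the share of higher genes among all genes called went from 52.8% to 64.0% in GSK. In COMBO it went from 52.5% to 63.3%. HDAC2, a histone deacetylase of several corepressor complexes, was at 396, 387 and 385 CPM in DMSO and 183, 199 and 175 CPM in COMBO, a fall of 1.07 ± 0.05 on the log2 scale (adjusted p = 4.64e-14), and fell by 0.74 ± 0.05 in GSK. CTDSP2, a phosphatase that acts with REST, rose by 0.34 ± 0.05 in GSK and 0.85 ± 0.05 in COMBO. RCOR1, the corepressor CoREST, was not called, at -0.09 ± 0.05 and -0.02 ± 0.05 (adjusted p = 0.104 and 0.749), and scaled by totals it stood at 0.19 in COMBO (adjusted p = 0.000671).

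**Figure D4:**
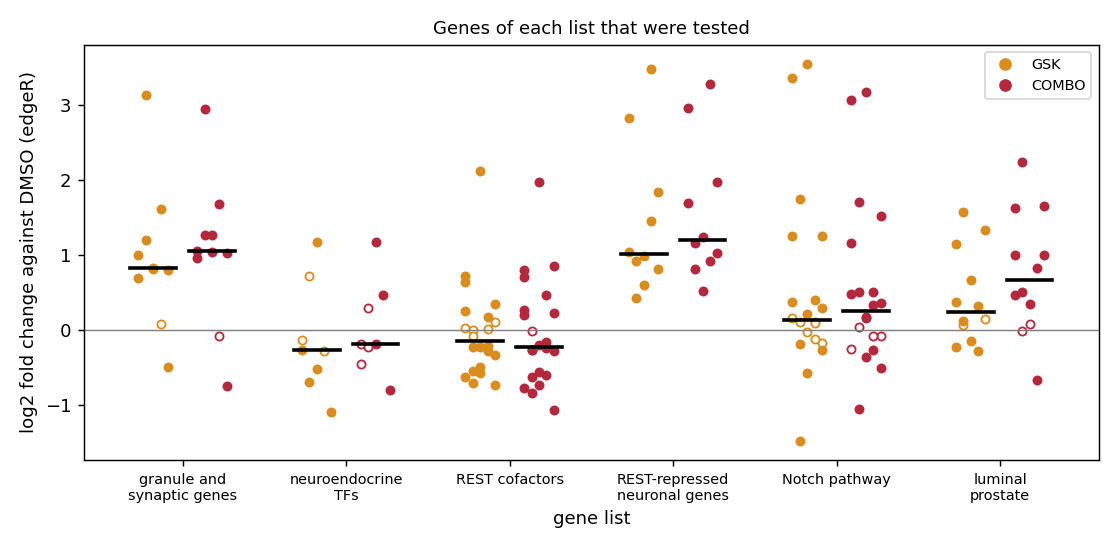
Log2 fold change against DMSO from edgeR (vertical axis) of the genes of 6 lists that were tested (horizontal axis), in GSK (orange) and COMBO (red). Each point is a gene, filled where the adjusted p is under 0.05, and black lines are list medians. All 10 tested REST-repressed genes lie above 0 with medians of 1.01 and 1.19, granule and synaptic genes lie mostly above 0, and the neuroendocrine transcription factors have medians below 0.

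Of 21 genes of granules and synapses outside the 9 markers, 10 had enough reads to be tested and 11 did not. Among the 11, GRP and SST had 0 reads in every arm, and SCG5 was at 0.700 CPM in DMSO and 0.331 CPM in COMBO. Some of the 10 were read at high levels. SYT4, a synaptotagmin of vesicle membranes, was at 1024, 924 and 1001 CPM in DMSO plates and 1300, 1408 and 1449 CPM in GDC plates. GSK plates held 1759, 1752 and 1712 CPM, and COMBO plates 2229, 2568 and 2264 CPM. The arms did not overlap, and SYT4 rose by 0.50 ± 0.05, 0.82 ± 0.05 and 1.26 ± 0.05 on the log2 scale against DMSO. PCSK1N, encoding an inhibitor of prohormone convertase 1, rose by 1.61 ± 0.20 in GSK and 1.68 ± 0.19 in COMBO. SYT1, the calcium sensor of synaptic release, rose by 3.13 ± 0.31 and 2.94 ± 0.29 from 0.211, 0.387 and 0.433 CPM.

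DDC, the aromatic amino acid decarboxylase of monoamine synthesis, rose by 1.19 ± 0.06 in GSK and 1.26 ± 0.05 in COMBO, and CPE, which trims prohormones, by 0.99 ± 0.06 and 1.05 ± 0.06. UCHL1, a neuronal ubiquitin hydrolase, differed by 0.07 ± 0.06 and -0.09 ± 0.05 and was not called. VGF, a precursor of neuropeptides, fell by 0.50 ± 0.12 and 0.75 ± 0.11. SYT1, DDC, CPE, UCHL1 and VGF were chosen after their values were seen. Of the 10 genes tested on this list, 8 rose and 1 fell, VGF, both in GSK and in COMBO, with medians of 0.82 and 1.04. Of all genes, 40.0% and 43.3% were called higher and 35.7% and 39.2% lower. With GDC 6 of the 10 rose and none fell, beside 20.0% and 20.0% of all genes, with a median of 0.28. The 21 genes summed to 1127 to 1207 CPM with DMSO and 1535 to 1683 CPM with GDC. The sums were 2039 to 2080 CPM with GSK and 2553 to 2899 CPM with COMBO, most of it SYT4.

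Of 20 transcription factors and regulators of the neuroendocrine state 8 were tested, of which 1 rose and 4 fell in GSK, beside 40.0% and 35.7% of all genes, and 2 rose and 2 fell in COMBO, beside 43.3% and 39.2%, with medians of -0.28 and -0.19. ONECUT2, a regulator of neuroendocrine and lineage-plastic prostate cancer, was at 73.0, 63.6 and 60.7 CPM in DMSO and 28.8, 23.7 and 38.3 CPM in GSK. It fell by 1.10 ± 0.13 in GSK (adjusted p = 1.62e-07) and by 0.81 ± 0.12 in COMBO. MYT1, a neural zinc finger factor, rose by 1.17 ± 0.18 and 1.17 ± 0.17. The counts on this list shifted with single libraries: without DMSO C, 2 rather than 4 factors fell in GSK, and without DMSO B, DMSO C or COMBO A, 1 rather than 2 rose in COMBO.

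Markers of other cell types were low, and their summed level was higher in the arms with GSK126. Of 15 such genes 5 were tested. All 5 rose in GSK, beside 40.0% of all genes, and 4 rose and 1 fell in COMBO, beside 43.3% and 39.2%. COL3A1, 1 of the 5, averaged 0.350 CPM in DMSO and 1.23 CPM in GSK, so it can have passed the filter through its rise. The 15 genes summed to 22.2 to 25.2 CPM with DMSO and 24.8 to 29.4 CPM with GDC, and to 48.5 to 59.9 CPM with GSK and 45.7 to 66.6 CPM with COMBO. COL1A1, a fibroblast collagen, rose by 1.51 ± 0.17 in GSK and 1.74 ± 0.16 in COMBO, and VWF, a marker of endothelium, rose by 0.90 ± 0.16 and 0.76 ± 0.15 but also by 0.87 ± 0.16 in GDC (adjusted p = 0.000179). The T cell gene CD3E had 0 reads in all arms, and the basal keratin KRT5 had at most 2 in an arm. The part of such genes in the results was not tested.

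The genes whose pattern over the 12 libraries lay nearest to that of each marker called in COMBO were chosen by the smallest root mean square difference of centred log2 CPM. For NCAM1 these were C1orf220 (0.25) and HCG4 (0.26), for DLL3 they were PEMT (0.06) and PDCL3 (0.08), and for REST they were GCC2 (0.05) and CERS6 (0.06). Pearson's r over the same libraries was 0.93 for both neighbours of NCAM1, 0.97 and 0.96 for those of DLL3, and 0.94 and 0.95 for those of REST. The libraries share arms and depth, so these values describe likeness and no more. Ranked by r instead, DLL3 kept PEMT and neither of the others kept a neighbour.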

How the data were processed

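PolyA RNA-seq of 12 libraries, 3 per arm, was analysed from 1 count file per library. The deposited counts are whole reads per gene made by the authors, whose notes name hg38, STAR, HTSeq and DESeq2; versions, annotation and strand setting are not given in the sources used here. Summary lines of the counter, 23.7% to 33.7% of all reads, were kept out of the library sizes and of every test. A deposited table of normalized values was not used. Arms were taken from the sample labels.

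Counts were fitted with edgeR 4.0.16 in R 4.3.3 (TMM scaling, filterByExpr, quasi-likelihood test) on all 12 libraries with 1 coefficient per arm, over 14189 genes that passed the filter. P-values were adjusted by the Benjamini-Hochberg method over all genes of a comparison, and 0.05 was the threshold. All errors of log2 fold changes are standard errors. Intervals of pooled count ratios are exact binomial at 95%. Log2 levels used a prior count of 2. Scripts were tested on simulated data.

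The members and lists were chosen with earlier results of these data known. Genes named were the members, EZH2 and BMF, 12 partner genes, the 2 largest changes in COMBO against DMSO of each list (mean log2 CPM not under 1), and the 2 nearest neighbours of each called member. Others are said to be chosen later, and some genes under this rule are not reported here. Alternatives were DESeq2 1.42.0 (its test, and its size factors), scaling by totals, testing without a filter or only above a mean of 1 CPM, a minimum log2 change of 1 in size, only the arms compared, a replicate block, each library left out, another prior count and Pearson likeness. Promoter windows came from RefSeq, and gene positions and exonic lengths from GENCODE 44. Replicates differed by more than counting noise, with a chi-square of 1.76 to 6.18 per degree of freedom.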

Additional observations from a re-analysis of the deposited data

Results flagged for a closer look

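No marker had an interaction past the threshold. Among the other genes named, 13 had a combined effect that differed from the sum of both single effects on the log2 scale, meaning that the response to GSK126 differed with and without GDC-0941 (edgeR interaction, adjusted p under the threshold). The value lay below the sum for EZH2 (-0.33, adjusted p = 0.00727), BMF (-0.29, 0.0207), NOTCH3 (-0.29, 0.0125), KLK3 (-0.46, 0.00156), KLK2 (-0.45, 0.0168), TMPRSS2 (-0.59, 0.00201), ST8SIA2 (-1.01, 0.0180), VWF (-1.01, 0.00216), DDC (-0.27, 0.0164), UCHL1 (-0.39, 0.00103) and TUBB3 (-0.49, 0.00105). It lay above the sum for ONECUT2 (0.55, 0.0325) and CERS6 (0.29, 0.0141). Of all genes tested, 4.86% were called above that sum and 16.5% below it. Some of the genes were named for large changes in COMBO or after their values were seen, so the 13 is no result about the named genes as a set.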

How the results depend on the processing

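Depth limits CHGA, CHGB, INSM1 and SCG2 most, since none passed 12 reads in a library, and NCAM1, with 3 to 26 reads, gave the widest errors of the tested markers. Of 324 values of the tested markers under alternatives, 315 kept their side of the threshold, 5 lost the call and 3 gained it. The remaining 1 reversed its direction and was then called. Values that were not called could change sign and still count among the 315. NCAM1 in GDC, for example, went from 0.52 to as low as -0.02, and SYP in COMBO against GSK from -0.22 to as high as 0.05. The reversed value was REST in GSK, at 0.15 scaled by library totals, and the same scaling reversed RCOR1 in COMBO to 0.19 and UCHL1 in COMBO to 0.12, both then called. Scaling by totals shifted the median of all genes by 0.15 in GSK and 0.21 in COMBO against DMSO, and the share of called genes that were higher from 52.8% to 64.0% for GSK, 52.5% to 63.3% for COMBO, 49.9% to 62.8% for COMBO against GDC and 41.4% to 52.3% in COMBO against GSK. With DESeq2 size factors that share went from 50.0% to 40.0% in GDC and from 22.7% to 34.2% in the interaction.

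The number of markers called moved as follows. Scaled by totals, 1 was called in GDC against 0. With a mean of at least 1 CPM, 1 was called in GSK against 2, because NCAM1 was then not tested, and for the same reason 2 against 3 were called in COMBO and in COMBO against GDC. Where calls also needed a log2 change of 1 in size, GSK had 1, COMBO had 1 and COMBO against GDC had 1, NCAM1 each time, while COMBO against GSK had 0; all genes called then numbered 266 in GDC, 3104 in GSK, 4412 in COMBO, 3094 in COMBO against GDC, 422 in COMBO against GSK and 189 in the interaction. Without the filter, REST was called in the interaction, 1 against 0, and NTS joined the calls, which then numbered 3 for GSK, 4 for COMBO and 4 for COMBO against GDC. With each library left out in turn, 0 markers were called in GDC, 1 to 2 in GSK, 3 in COMBO, 2 to 3 in COMBO against GDC, 1 in COMBO against GSK and 0 to 1 in the interaction; the libraries behind these changes were DMSO C, GDC A, COMBO B and COMBO A. The cause was not tested for the changes under scaling or left-out libraries.

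Plates carry the letters A to C, but same-lettered plates deviated together by no more than r = 0.19 and by over 0.1 in only 2 of 18 pairs, so the letters are names and no pairing was assumed. With the replicate block, 0 markers were called in GDC, 2 in GSK, 3 in COMBO, 3 in COMBO against GDC, 1 in COMBO against GSK and 0 in the interaction, the same numbers as without it.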
